A study of Homo sapiens with 6 samples.

Results

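The negative regulators of p53, MDM2 and MDM4, and 7 of the genes that p53 activates were examined in HCT116 cells, a human colorectal carcinoma line. The 9 genes were MDM2, MDM4, CDKN1A, GDF15, TP53I3, TP53I11, SESN1, ZMAT3 and FAS, chosen by name out of 58780 annotated genes in the tables. RNA-seq had been run on 6 libraries, 3 from cells given auxin for 16 h and 3 from cells given DMSO, the solvent control, which the labels number as biological replicates 1 to 3 of each group. Auxin, a plant hormone, is used to destroy a degron-tagged protein, and the labels name neither the tagged protein nor the auxin receptor that such a line needs. Both groups came from the HCT116 line as labelled, and no group of untagged cells given auxin was analysed here, so auxin itself and the loss of a protein cannot be told apart.

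p53 is a transcription factor that is kept low in unstressed cells. MDM2 is a ubiquitin ligase that marks p53 for degradation and is itself switched on by p53, which closes a feedback loop. MDM4 binds and blocks p53 without much ligase activity of its own, and its level is set largely by splicing, because transcripts without exon 6 do not give the full-length protein. FAS is a death receptor whose exon 6 encodes the membrane-spanning segment, so that transcripts without it encode a soluble form.

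The results on splicing turn on 2 short exons and 1 choice of first exon, and their sequences are shown for that reason. They were read from GENCODE release 29 on GRCh38 and are written 5′ to 3′ along the RNA as DNA letters. MDM4 exon 6 lies at chr1:204537430-204537497 on the plus strand, is 68 bases long and is a coding exon of the transcript MDM4-203. FAS exon 6 lies at chr10:89010753-89010815 on the plus strand, is 63 bases long and is a coding exon of FAS-204. In the first 2 lines the exon is in capitals between 20 bases of each neighbouring exon, and in the next 2 the capitals mark the 20 bases that follow the junction formed when the exon is left out.
MDM4 exon 6 with its neighbours: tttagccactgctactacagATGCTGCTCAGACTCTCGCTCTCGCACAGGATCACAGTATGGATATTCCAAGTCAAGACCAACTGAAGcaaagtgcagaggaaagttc
FAS exon 6 with its neighbours: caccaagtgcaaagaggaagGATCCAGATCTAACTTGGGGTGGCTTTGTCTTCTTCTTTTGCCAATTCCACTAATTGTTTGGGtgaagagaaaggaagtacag
MDM4 junction without exon 6: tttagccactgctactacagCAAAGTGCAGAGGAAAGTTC
FAS junction without exon 6: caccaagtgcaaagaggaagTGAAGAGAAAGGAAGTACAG

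A second form of MDM4 exon 6 is used by MDM4-217, a transcript with a coding part of 459 bases against 1470 in MDM4-203. It starts exon 6 further downstream, at chr1:204537459-204537497, and keeps the last 39 bases, which are in capitals here.
MDM4 exon 6, part held by MDM4-217: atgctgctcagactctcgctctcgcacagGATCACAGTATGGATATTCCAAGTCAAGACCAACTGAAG

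SESN1 has transcripts with different first exons on the minus strand of chromosome 6. The first exon of SESN1-202 lies at chr6:109009359-109009555 and that of SESN1-204 at chr6:109093795-109094819, and both are joined to the same second exon. The last 30 bases of each first exon are in capitals, followed by the start of the shared exon in lower case.
SESN1-202 first junction: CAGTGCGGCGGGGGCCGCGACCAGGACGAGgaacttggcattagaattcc
SESN1-204 first junction: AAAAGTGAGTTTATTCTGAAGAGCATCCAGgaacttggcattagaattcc

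The libraries held between 234037969 and 625895062 expected counts, and replicate 1 was the deepest in both groups. Each of the 9 genes had at least 1370 expected counts in every library, so counting error was small beside the spread between replicates. Of 8 epithelial markers listed, VIL1 and CEACAM5 did not pass the filter on low counts. The other 6 were all called higher after auxin, where 25.4% of all genes tested were called higher. Of 11 markers of other cell types, 7 did not pass that filter and none of the other 4 was called, with a summed level between 1.27 and 3.59 TPM in any library (a length-scaled measure with the same total in every library). Gene levels are given as CPM, the share of a library's counts scaled with the TMM method, and differences as log2 fold changes of auxin over DMSO with their standard error. A gene is said to have risen or fallen where the adjusted p of edgeR's quasi-likelihood test was under 0.05 over the 19725 genes tested. In such bulk samples a change in the number of cells of one kind and a change in RNA per cell cannot be told apart.

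After auxin MDM4, CDKN1A and ZMAT3 rose, TP53I11 and GDF15 fell, and MDM2, TP53I3, SESN1 and FAS did not pass the test. Only the fall of TP53I11, 6.60-fold, was more than 2-fold among the 9 genes, and the rises lay between 1.13-fold and 1.52-fold. These 5 calls among 9 genes stand beside 52.3% of all genes tested that were called, 25.4% higher and 26.9% lower. The CPM of the groups did not overlap for 6 of the 9 genes, against 60.3% of all genes tested. The members as a group were thus called about as often as any other genes. Their median log2 fold change was 0.17, against 0.02 over all genes tested.

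**Figure D1:**
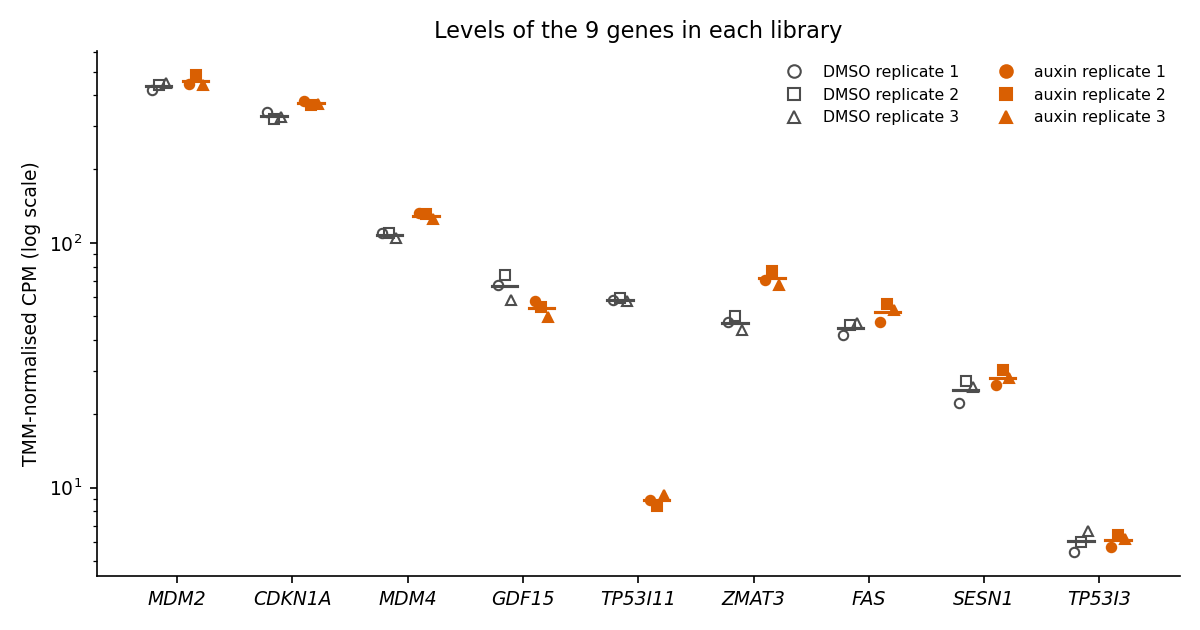
Levels of the 9 genes as TMM-normalised CPM on a logarithmic axis, with 1 symbol per library and a bar at the mean of each group of 3. TP53I11 drops from about 58.5 to 8.86 CPM, while the other 8 genes differ by at most 1.52-fold.

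MDM2, the ligase that degrades p53, was at 420, 441 and 448 CPM in DMSO replicates 1, 2 and 3 and at 445, 486 and 440.2 CPM after auxin. The 2 groups overlapped. MDM2 differed by 0.07 ± 0.07 (SE) in log2 units, and the edgeR adjusted p was 0.435. Its sign was not stable across scalings, at −0.02 with library size alone and 0.19 with upper-quartile factors, where edgeR's adjusted p was 0.0251. Upper-quartile factors moved the median over all genes tested from 0.02 to 0.15 on the log2 scale, so that relative to this median the difference of MDM2 stayed small. The gene shares 439 bases on its own strand with the processed pseudogene AC025423.2, whose log2 fold change was 0.08, and the split of reads between them is uncertain.

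MDM4, the partner of MDM2 that blocks p53, was at 109, 110.01 and 105 CPM in the DMSO libraries and at 132, 131 and 125 CPM after auxin. Every auxin library lay above every DMSO library. MDM4 differed by 0.26 ± 0.05 (SE) in log2 units, a 1.20-fold rise, and the edgeR adjusted p was 0.0058. Scaling by library size alone gave 0.17 and the edgeR adjusted p was 0.116.

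CDKN1A encodes p21, the inhibitor of cyclin-dependent kinases through which p53 stops the cell cycle. Its levels were 343, 320.3 and 325 CPM in DMSO and 381, 365 and 368 CPM after auxin, without overlap. The rise of CDKN1A was 0.17 ± 0.06 (SE) on the log2 scale, or 1.13-fold, and the edgeR adjusted p was 0.0427. Leaving out any 1 of the 6 libraries ended this call for CDKN1A, with edgeR adjusted p between 0.0544 and 0.219, and library size alone gave an edgeR adjusted p of 0.485.

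ZMAT3, an RNA-binding zinc finger protein and a direct p53 target that takes part in splicing and RNA decay, was at 47.3, 50.01 and 43.9 CPM in DMSO and at 70.7, 76.7 and 67.4 CPM after auxin. All 3 auxin libraries were well above the DMSO libraries. The rise of ZMAT3 was the largest of the 9 genes, 0.60 ± 0.07 (SE) on the log2 scale or 1.52-fold, and the edgeR adjusted p was 0.000425. It kept its call when any 1 library was left out.

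FAS, the death receptor, was at 42.1, 46.1 and 46.8 CPM in DMSO and at 47.6, 56.0 and 53.2 CPM after auxin. The groups did not overlap, and the lowest auxin library was close to the highest DMSO library. FAS differed by 0.22 ± 0.08 (SE) in log2 units, and the edgeR adjusted p was 0.052, or 0.000452 after blocking on replicate. The call also appeared without auxin replicate 1, and the edgeR adjusted p was 0.0142. The gene overlaps ACTA2 on the opposite strand over 758 bases; ACTA2 had a log2 fold change of 1.09 and at most 7611 counts, against 11780 or more for FAS, and the use of strand in counting is not given in the sources used here.

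SESN1, a sestrin that restrains mTORC1 signalling, was at 22.1, 27.3 and 25.7 CPM in DMSO and at 26.1, 30.3 and 28.0 CPM after auxin. The groups overlapped, although each auxin library was above the DMSO library of the same number. SESN1 differed by 0.17 ± 0.10 (SE) in log2 units, and the edgeR adjusted p was 0.186, or 0.00395 after blocking on replicate. It was past the threshold in 2 of the 15 alternatives tried.

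GDF15, a secreted stress cytokine, was at 67.0, 74.0 and 58.2 CPM in DMSO and at 58.0, 54.9 and 49.6 CPM after auxin. The highest auxin library was just under the lowest DMSO library. GDF15 differed by −0.29 ± 0.10 (SE) in log2 units, a 1.23-fold fall, and the edgeR adjusted p was 0.0436. This call was lost without DMSO replicate 1 or 2 or auxin replicate 2 or 3, where the edgeR adjusted p lay between 0.0712 and 0.143, and with upper-quartile factors, where it was 0.236.

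TP53I11, a p53-induced gene, showed by far the clearest difference. It was at 58.5, 59.2 and 57.7 CPM in the DMSO libraries and at 8.86, 8.42 and 9.30 CPM after auxin. TP53I11 differed by −2.72 ± 0.06 (SE) in log2 units, and the edgeR adjusted p was 1.4e-06, and 4.90% of all genes tested fell by 4-fold or more. The gene lies at chr11:44885903-44951306 on the minus strand and shares 46519 bases with TSPAN18 on the opposite strand, whose log2 fold change was 0.53. The value for TP53I11 stayed between −2.81 and −2.42 in all 15 alternatives tried, and each was past its threshold.

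TP53I3, a quinone oxidoreductase-like p53 target, was the least expressed of the 9 by CPM, at 5.47, 6.02 and 6.67 CPM in DMSO and 5.73, 6.38 and 6.18 CPM after auxin. The auxin values lay within the range of the DMSO values. TP53I3 differed by 0.01 ± 0.11 (SE) in log2 units, and the edgeR adjusted p was 0.938. The gene overlaps FAM228B on the opposite strand over 8429 bases, and the use of strand in counting is not given. FAM228B had a log2 fold change of 0.35 and at most 1395 counts, against 1370 or more for TP53I3.

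On the length-scaled TPM measure, which allows genes to be ranked, MDM2 and CDKN1A led in DMSO at 255 ± 58.0 and 170 ± 44.1 TPM (SD, n = 3) with overlapping ranges, followed by GDF15 at 66.5 ± 16.3 TPM. TP53I11, FAS and MDM4 came next at 21.8 ± 5.25, 20.7 ± 3.42 and 15.3 ± 4.01 TPM, with ranges that overlapped from one to the next. SESN1 was at 9.87 ± 1.23 TPM, and ZMAT3 and TP53I3 closed the order with overlapping ranges at 6.53 ± 1.48 and 6.20 ± 1.24 TPM. After auxin the order of the other 8 was kept and TP53I11 moved from the fourth place to the last, at 3.25 ± 0.67 TPM. The first place of MDM2 rested on 1 annotated entry: MDM2-232 is 213 bases long, took 40.2% ± 6.11 of the gene's TPM in DMSO (SD, n = 3), and held between 0.987% and 1.32% of its expected counts. Without entries shorter than 300 bases, MDM2 was at 150.1 ± 20.7 TPM in DMSO and 146 ± 6.23 TPM after auxin, and CDKN1A had the higher mean in both groups, with overlapping ranges in both.

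The TPM of all 9 genes was highest in replicate 1 of each group, whereas by CPM this held for 1 of the 9 in DMSO and 3 of the 9 after auxin. Entries shorter than 300 bases took 20.6% of all TPM in DMSO replicate 1 and 26.3% in auxin replicate 1, against 34.2% to 38.4% in the other 4 libraries. The part of this in the TPM values was not tested. On TPM the groups overlapped for 8 of the 9 genes, all but TP53I11, and in a limma fit on log2(TPM + 1) only TP53I11 among the 9 was called, with an adjusted p of 0.0013.

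MDM2 has an upstream promoter, P1, and a second one in intron 1, P2, which p53 activates. Transcripts that start in exon 1 of MDM2-202 summed to 52.98, 34.9 and 36.0 TPM in DMSO and to 46.2, 35.3 and 34.5 TPM after auxin. Transcripts that start in intron 1 summed to 50.6, 34.3 and 37.4 TPM in DMSO and to 47.1, 37.2 and 35.9 TPM after auxin. As a percentage of both together, P2 took 48.9%, 49.6% and 50.9% in DMSO and 50.5%, 51.3% and 51.02% after auxin. These shares overlapped, with a mean of 49.8% ± 1.06 against 50.9% ± 0.42 (SD, n = 3) and a two-sided exact permutation p of 0.2, where 0.1 is the smallest that 3 against 3 allows. The share was higher after auxin in 3 of the 3 same-numbered pairs, for which the smallest two-sided exact p is 0.25. The larger part of the gene's TPM came from entries that start at exon 2 or later and could be given to neither promoter.

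Transcript shares, the percentage of a gene's TPM that 1 transcript takes, were tested with limma for 58600 transcripts, of which 35 belonged to 8 of the 9 genes; GDF15 had none, because GDF15-201 took over 99% in each library. Of the 35, 4 were called, 2 higher and 2 lower, which is 11.4%, against 11.6% of all transcripts tested. The groups did not overlap for 9 of the 35, where the background was 29.0%.

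Among the MDM2 transcripts with a mean share of at least 5%, none was called. MDM2-202, the longest coding form, took 9.35%, 9.92% and 9.89% of TPM in DMSO and 9.71%, 9.51% and 9.14% after auxin, and held 70.7% ± 0.62 of the gene's expected counts with DMSO against 70.4% ± 0.37 with auxin (SD, n = 3). The DMSO means of MDM2-231, MDM2-225 and MDM2-207 were 15.9%, 10.9% and 6.40%, and their auxin means 15.4%, 10.6% and 6.43%, with overlap in each case. The called transcript was the minor MDM2-212, which starts in intron 1 and took 2.05%, 2.29% and 2.49% in DMSO and 3.11%, 3.43% and 3.63% after auxin, with a limma adjusted p of 0.0335. The call for MDM2-212 was lost when any library other than auxin replicate 1 was left out, with limma adjusted p from 0.0660 to 0.118. Inclusion of an exon is the TPM of the transcripts that hold it in exactly that form, as a percentage of their TPM plus that of the transcripts that skip it altogether. MDM2 exon inclusion was tested for 11 exons or exon forms and none was called, the smallest limma adjusted p being 0.106 for a 93-base exon that only MDM2-212 holds, at chr12:68815628-68815720. For the exons of the reference form MDM2-225 numbered 3 to 10, the mean inclusion in DMSO ran from 37.3% to 89.5% and the difference after auxin from −0.85 to 0.04 percentage points. The values for exon 3 and for exons 5 to 10 depend on MDM2-232, the 213-base entry named above, which holds exon 3 and counts as skipping for the others. Without entries shorter than 300 bases, a choice made after the data were seen, the DMSO means of exons 3 to 8 ran from 80.0% to 82.4%, those of exons 9 and 10 were 99.53% each, and the differences lay between −1.26 and −0.17 percentage points. The 93-base exon of MDM2-212 then went from 5.55% ± 0.04 to 8.12% ± 0.37 (SD, n = 3) and was called, with a limma adjusted p of 0.0415. A 27-base form of exon 4 was tested too, but it is held by MDM2-232 alone and its inclusion has no other source. A 15-base form of exon 9, whose denominator MDM2-232 dominates, was at 6.87% ± 3.82 and 5.87% ± 2.11 (SD, n = 3), with overlap.

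**Figure D2:**
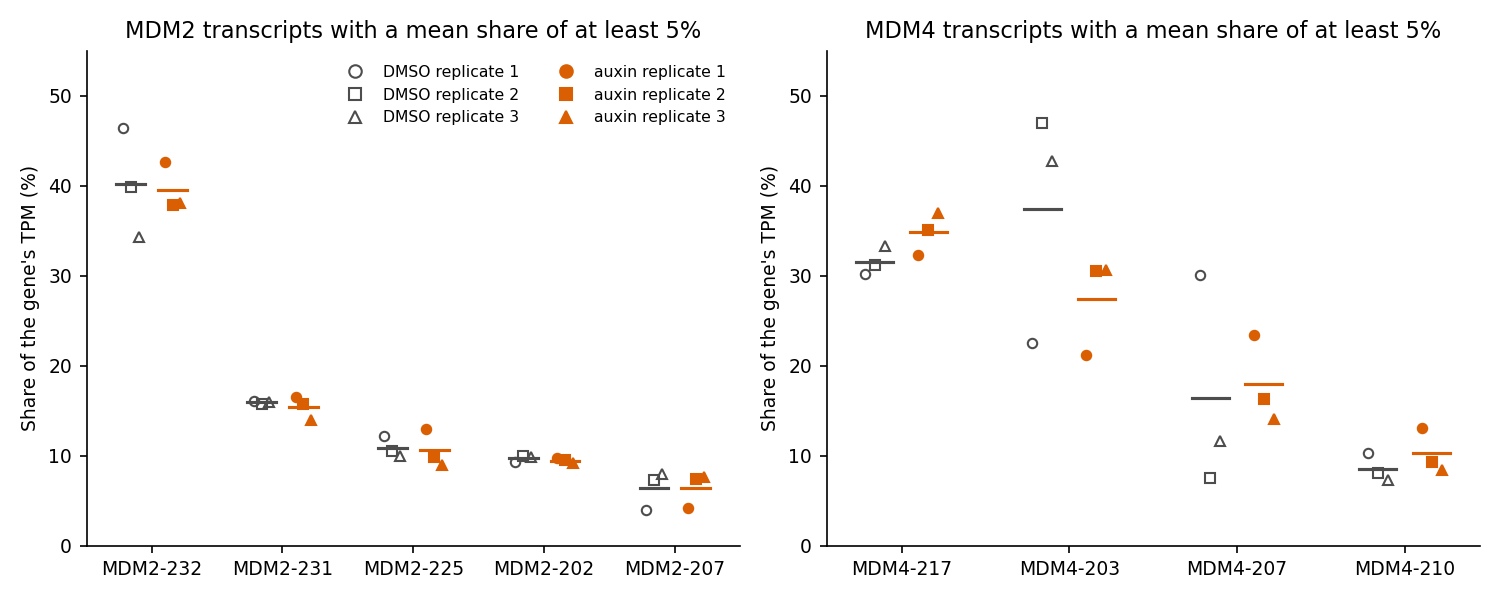
Share of the gene's TPM taken by each MDM2 and MDM4 transcript with a mean share of at least 5%, with 1 symbol per library and a bar at the mean of each group of 3. Open and filled symbols overlap for every transcript shown, and replicate 1 stands apart for MDM4-203 and MDM4-207 in the DMSO group.

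Because transcripts with another form of an exon are in neither part of its inclusion, the large share of MDM4-217 is left out for the full form of MDM4 exon 6, and the values of the forms do not add up. MDM4 exon 6 in its full form was included in 94.7%, 95.4% and 96.4% of that TPM in DMSO and in 91.1%, 92.8% and 90.4% after auxin. Every auxin library was lower, and the mean went from 95.5% ± 0.87 to 91.4% ± 1.25 (SD, n = 3). The log2 ratio of inclusion to skipping differed by −0.86 ± 0.19 (SE), with a limma adjusted p of 0.0477. After blocking on replicate the limma adjusted p was 0.0939, and leaving out any 1 library gave 0.0649 to 0.138. With every form of exon 6 counted as included, a definition added after the data were seen, inclusion was 96.5%, 97.00% and 97.7% in DMSO and 94.6%, 95.8% and 94.5% after auxin. These values did not overlap either, but the limma adjusted p was 0.0665 and exon 6 was not called. The skipping came from minor entries such as MDM4-213, whose share ran from 0% to 4.31% over the 6 libraries. When inclusion was computed from expected counts, exon 6 was outside the tested range of 2% to 98%.

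Set against the same skipping transcripts alone, the shorter form of exon 6 shown above, the one in MDM4-217, took 92.5% ± 1.63 in DMSO and 89.1% ± 1.34 after auxin (SD, n = 3), with a limma adjusted p of 0.201 and no overlap. MDM4-217 took 30.2%, 31.2% and 33.3% of the gene's TPM in DMSO and 32.4%, 35.1% and 37.01% after auxin, and the limma adjusted p was 0.417. As a share of expected counts it was 24.0% ± 0.65 and 29.1% ± 1.48 (SD, n = 3), and there the limma adjusted p was 0.0352. MDM4-203, the full-length coding form, took 22.5%, 47.01% and 42.8% in DMSO and 21.2%, 30.5% and 30.6% after auxin. MDM4-207, which lacks exon 9, took 30.1%, 7.51% and 11.7% in DMSO and 23.4%, 16.3% and 14.04% after auxin. The 2 transcripts trade places between replicates of 1 group, and the deposited posterior SD of their counts reached 3.52% and 3.43% of the gene's counts. Neither share passed the test. MDM4-210, which has no coding sequence, took 8.53% ± 1.57 and 10.2% ± 2.49 (SD, n = 3). Exon 9 was included in 79.4% ± 14.7 in DMSO and 74.6% ± 6.28 after auxin (SD, n = 3), with a limma adjusted p of 0.711. Exon 8 was included in 98.1% ± 1.64 and 95.9% ± 0.78, with a limma adjusted p of 0.355. A rare 88-base exon form between exons 6 and 8, which 1 transcript holds, was listed at 100% in 5 libraries and at 40.0% in auxin replicate 2, and was not called.

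FAS exon 6 moved the other way. Its inclusion was 93.1%, 92.0% and 92.4% in DMSO and 95.8%, 95.9% and 96.0% after auxin, with every auxin library above every DMSO library. The mean went from 92.5% ± 0.57 to 95.9% ± 0.08 (SD, n = 3), and the log2 ratio of inclusion to skipping rose by 0.79 ± 0.13 (SE), with a limma adjusted p of 0.0171. It was 0.0232 when computed from expected counts. Without DMSO replicate 2, DMSO replicate 3 or auxin replicate 2 the limma adjusted p for FAS exon 6 was 0.0623, 0.0584 and 0.0541. The 2 called exons, MDM4 exon 6 and FAS exon 6, were 8.70% of 23 tested in these genes, against 11.1% of 26188 exons tested in all. The groups did not overlap for 5 of the 23, where the background was 28.5%.

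FAS-205, the form with the junction shown above, joins exon 5 straight to exon 7. Its share of the gene's TPM was 5.68%, 7.01% and 6.58% in DMSO and 3.64%, 3.63% and 3.28% after auxin. The fall of FAS-205 had a limma adjusted p of 0.0104, and of 0.0503 without DMSO replicate 3. FAS-204, the membrane-bound form, took 83.0% to 83.9% in DMSO and 84.3% to 89.2% after auxin, and was not called, with a limma adjusted p of 0.726.

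SESN1 changed its balance of first exons. SESN1-204, which begins at the upstream first exon, took 21.9%, 19.7% and 25.4% of the gene's TPM in DMSO and 11.3%, 12.6% and 11.6% after auxin. The 2 groups were far apart, with a limma adjusted p of 0.011. In TPM, SESN1-204 was at 2.20 ± 0.29 and 1.21 ± 0.06, and SESN1-202, from the downstream first exon, at 6.61 ± 0.72 and 8.11 ± 0.54 (SD, n = 3). The share of SESN1-202 was 65.9% to 67.6% in DMSO and 78.4% to 79.7% after auxin without overlap, although its limma adjusted p was 0.11, and 0.0277 on shares of expected counts. The call for SESN1-204 held when any 1 library was left out, with limma adjusted p from 0.0266 to 0.0466, and was lost with replicates 2 and 3 alone, at 0.101.

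The forms of TP53I11 did not all keep their shares. TP53I11-203, its main coding transcript, went from 14.04 ± 2.48 to 1.77 ± 0.13 TPM (SD, n = 3). TP53I11-215, a short coding form, went from 1.92% ± 0.12 to 4.62% ± 0.81 of the gene's TPM (SD, n = 3), with a limma adjusted p of 0.00969, while its own level was 0.42 ± 0.13 and 0.15 ± 0.06 TPM. Without DMSO replicate 2 the limma adjusted p for TP53I11-215 was 0.0515. Retained-intron entries of TP53I11 took 2.04%, 2.27% and 2.04% in DMSO and 6.57%, 5.00% and 7.21% after auxin, with a two-sided exact permutation p of 0.1, the smallest possible. Their difference was 4.14 percentage points on TPM and 0.99 on shares of expected counts. Entries of CDKN1A with no coding sequence took 1.80% ± 0.16 in DMSO and 1.05% ± 0.08 after auxin (SD, n = 3), with the same exact p. Here the difference was −0.75 percentage points on TPM and −0.14 on shares of expected counts. ZMAT3 and TP53I3 had no called transcript.

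**Figure D3:**
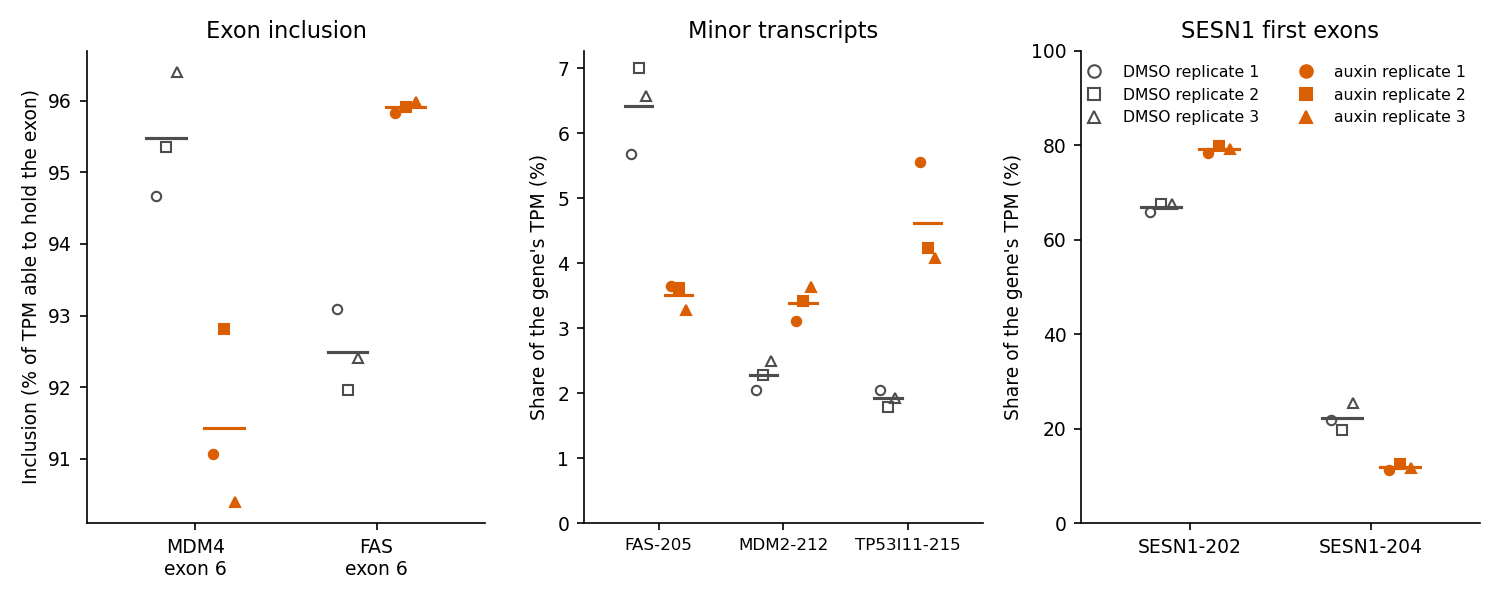
Inclusion of MDM4 exon 6 in its full form and of FAS exon 6, against skipping (left, in % on an axis that does not start at 0), shares of the called minor transcripts (centre) and shares of the SESN1 transcripts by first exon (right), with 1 symbol per library and a bar at the mean of each group of 3. In each pair the DMSO and auxin libraries do not overlap.

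The factors known to act on these exons were examined next. SRSF3 and the methyltransferase PRMT5 favour inclusion of MDM4 exon 6. SRSF3 was at 126935, 65989 and 71624 expected counts in DMSO replicates 1 to 3 and at 114331, 49495 and 45701 in the auxin libraries. These counts, unlike CPM, are not scaled for depth, and replicate 1 was the deepest library in both groups. SRSF3 differed by −0.26 ± 0.10 (SE) in log2 units, and the edgeR adjusted p was 0.0669, or 0.000372 after blocking on replicate. It was past the threshold in 5 of the 15 alternatives tried. Leaving out 1 library gave it an edgeR adjusted p between 0.0336 and 0.186. PRMT5 fell by 0.24 on the log2 scale, and the edgeR adjusted p was 0.011, or 0.0507 without DMSO replicate 3 and 0.0759 with upper-quartile factors. Among 12 regulators of MDM4 or FAS exon choice, 6 fell and 1 rose, where 26.9% of all genes tested fell and 25.4% rose. Their median log2 fold change was −0.25, against 0.02 over all genes tested. After blocking on replicate 4 rose, where 35.5% of all genes tested rose, and without auxin replicate 1, 2 rose, where 24.9% did. With upper-quartile factors 5 of the 12 rose and 4 fell, where 33.1% of all genes tested rose and 22.4% fell. PTBP1, which represses FAS exon 6, fell by 2.23 on the log2 scale, and RBM10, an RNA-binding protein that also acts on this exon, fell by 2.91, with edgeR adjusted p of 5.5e-06 and 1.5e-06. RBM5, its relative that promotes skipping of FAS exon 6, rose by 0.27, and the edgeR adjusted p was 0.00351; with library size alone it was 0.112, and none of the 12 was then called higher.

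PTBP1 binds pyrimidine-rich RNA with cores such as UCUU, written TCTT in DNA letters, and FAS exon 6 holds TCTT 3 times with overlap on the sense strand, in capitals here.
FAS exon 6 with TCTT in capitals: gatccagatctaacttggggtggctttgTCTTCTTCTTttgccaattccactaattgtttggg
Of 317 annotated exons of 63 bases that some transcripts skip, 27.8% hold TCTT at least 1 time and 0.631% hold it 3 times or more, and the reverse complement AAGA, absent from FAS exon 6, is in 45.7%. FAS exon 6 is itself among the 317, and among the 2 exons that hold TCTT 3 times or more. MDM4 exon 6 holds TCTT 0 times. The 3 copies in FAS exon 6 form 1 unbroken stretch. These matches describe the letters of the exons, and no binding was measured. Whether PTBP1 took part in the change of FAS exon 6 was not tested.

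Among 21 regulators of p53, 8 fell and 2 rose, where 26.9% of all genes tested fell and 25.4% rose. Their median log2 fold change was −0.0093. PPM1D, the WIP1 phosphatase that switches off p53 signalling and is a p53 target, fell by 0.67 on the log2 scale. DAXX, which stabilises MDM2, fell by 1.72, and KAT5, which acetylates p53, fell by 1.02. ATR, the replication stress kinase, rose by 0.62, and RCHY1, another p53 ligase, rose by 0.58 on the log2 scale. USP7, the protease that removes ubiquitin from MDM2 and p53, had a log2 fold change of 0.31 and the edgeR adjusted p was 0.0547, or 4.7e-05 after blocking on replicate. USP7 was past the threshold in 7 of the 15 alternatives tried. Leaving out 1 library gave it an edgeR adjusted p between 0.0105 and 0.171. RPL5 and RPL11, ribosomal proteins that bind MDM2, had log2 fold changes of 0.30 and 0.17 with edgeR adjusted p of 0.127 and 0.541, or 3.0e-05 and 0.00079 after blocking on replicate. RPL5 was past the threshold in 4 of the 15 alternatives and RPL11 in 2. With that block 9 of the 21 regulators rose, where 35.5% of all genes tested rose. Without DMSO replicate 1, 4 of the p53 regulators rose, and without auxin replicate 1, 5 rose, where 23.1% and 24.9% of all genes tested did.

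Other p53 targets moved in both directions. Of 12 cell cycle arrest genes 4 rose and 3 fell, where 25.4% of all genes tested rose and 26.9% fell. Among the 12 were the kinase PLK2, with a log2 fold change of 1.07, and its relative PLK3, with −1.46. PRDM1, a transcriptional repressor, rose by 0.86, and E2F7, a repressor of E2F targets, fell by 0.87. After blocking on replicate 7 of these 12 fell, where 34.4% of all genes tested fell, and with library size alone 6 fell, where 28.5% did.

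Of 15 apoptosis genes tested, 7 rose and 3 fell, where 25.4% of all genes tested rose and 26.9% fell. Their median log2 fold change was 0.27. The TRAIL receptor genes TNFRSF10C and TNFRSF10B rose by 0.67 and 0.61, while PIDD1, which organises a caspase-activating complex, fell by 2.18 and APAF1, the core of the apoptosome, fell by 1.63 on the log2 scale. Of 9 DNA repair genes 2 rose and 5 fell, against the same 25.4% and 26.9%, with a median of −0.17. FANCC, of the Fanconi anaemia pathway, fell by 0.90 and PCNA, the sliding clamp of replication, fell by 0.80, while RPS27L and POLK rose by 0.43 and 0.20. Both rises were lost in places: RPS27L without auxin replicate 2 or 3, with edgeR adjusted p of 0.0658 and 0.0565, and POLK without DMSO replicate 2, DMSO replicate 3 or auxin replicate 2, with edgeR adjusted p of 0.0873, 0.0663 and 0.0662, and with library size alone, where it was 0.214.

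Of 13 metabolism and autophagy genes tested 3 rose and 3 fell, where 25.4% of all genes tested rose and 26.9% fell. Their median log2 fold change was −0.13. After blocking on replicate 6 fell, where 34.4% of all genes tested fell. PRKAB2, a subunit of AMPK, and TIGAR, which lowers glycolytic flux, rose by 0.90 and 0.70, and FDXR, a mitochondrial ferredoxin reductase, and CPT1C fell by 1.31 and 1.18 on the log2 scale.

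A second arm of the pathway runs through p21, which lets the DREAM repressor complex switch off cell cycle genes. The 18 genes listed for this arm were chosen with earlier results of these data known, so their count is not an independent test. All 18 fell in edgeR's test, where 26.9% of all genes tested fell. Their log2 fold changes ran from −4.59 to −0.41, with a median of −0.98. Whether p21 or DREAM took part in these falls was not tested. E2F1, the transcription factor that drives entry into S phase, fell 24.0-fold, from 36.3, 28.3 and 29.8 CPM to 1.57, 1.18 and 1.14 CPM. MYBL2, an activator of mitotic genes, fell 4.28-fold, from 89.3, 86.5 and 100.7 CPM to 20.0, 19.7 and 24.9 CPM.

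**Figure D4:**
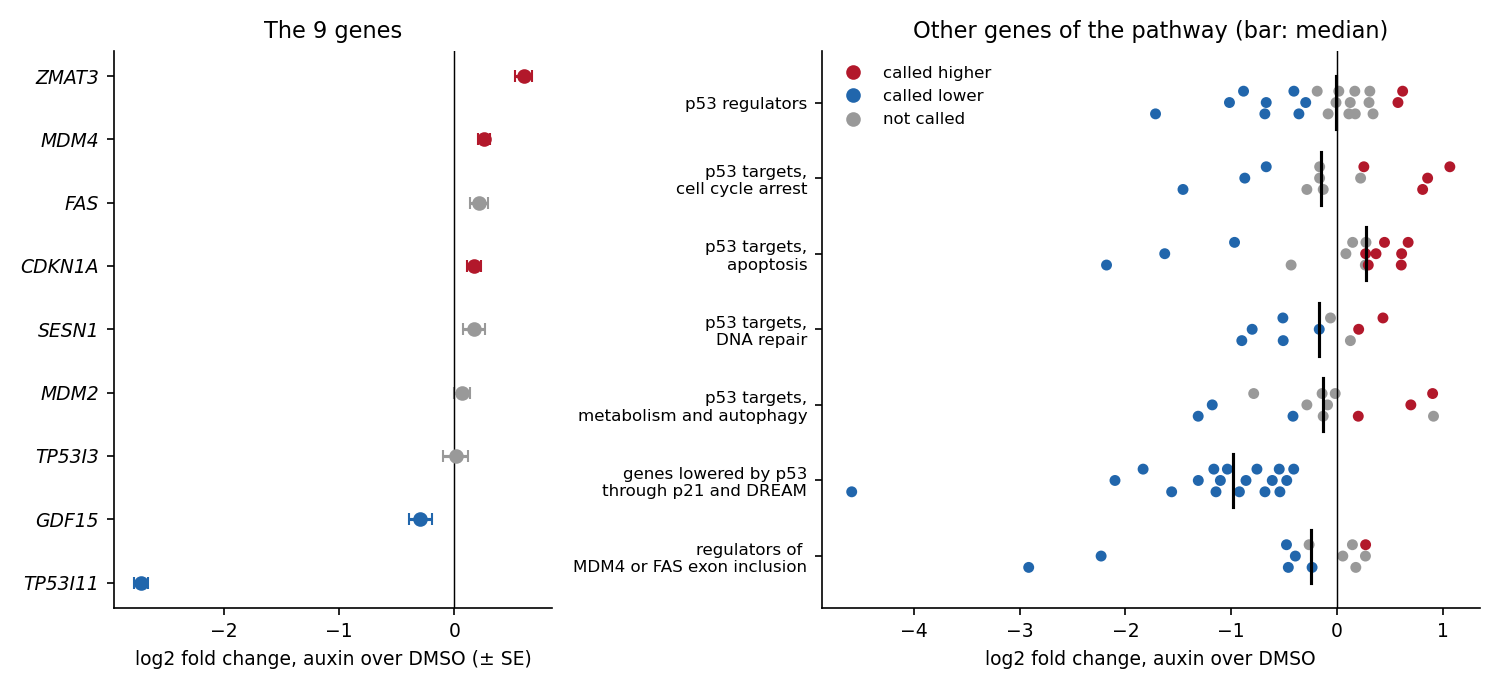
Log2 fold changes of auxin over DMSO for the 9 genes with their standard errors (left) and for 7 lists of other pathway genes (right), where a point is 1 gene, a bar is the median of the list, and colours mark genes called higher or lower. TP53I11 lies at −2.72 while the other 8 genes lie between −0.29 and 0.60. All 18 genes listed for the p21 and DREAM arm lie left of 0, and the cause was not tested. The lists were chosen with earlier results of these data known.

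The genes whose CPM pattern over the 6 libraries was most like that of a member were found among 12847 genes, by the root mean square difference of log2 CPM centred on the DMSO mean. For MDM4 these were BTG2, ZNF83 and MTHFD2L, with differences of 0.016, 0.019 and 0.020, and the log2 fold change of BTG2, a p53 target that slows the cell cycle, was 0.25. For CDKN1A they were GJC1, KDM2A and ZZEF1, with differences of 0.013, 0.016 and 0.017. For MDM2 they were FAM220A, NTAQ1 and ZNF555, with differences of 0.020, 0.024 and 0.026.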

How the data were processed

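RNA-seq of 3 auxin and 3 DMSO libraries of HCT116 was analysed from the deposited gene and transcript tables. Ribosomal RNA was removed from total RNA and a stranded kit was used for paired-end sequencing, per the labels' protocols. The submitters' processing notes name bcl2fastq 2.20, STAR and DESeq2, and the builds GRCh38 and hg38; the counting program, its annotation and its use of strand are not given in the sources used here. Per the file headers, the authors deposited expected counts (estimated read counts, not normalised), TPM and a signal giving the posterior SD of each count. The 58780 gene IDs matched GENCODE release 29; 649 numeric and 97 spike-in or phiX IDs were left out.

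Expected counts were rounded and tested with edgeR 4.0.16 (R 4.3.3; TMM, filterByExpr, quasi-likelihood). Shares of TPM (mean at least 2%) and exon inclusion (2% to 98%) were tested with limma 3.58.1 on log2 values with a pseudocount of 1 percentage point. Every p of edgeR, limma and DESeq2 was adjusted by Benjamini-Hochberg over all features tested, with a threshold of 0.05; exact permutation p of summed shares are unadjusted. Other scalings, filters, DESeq2 1.42.0, limma on log2(TPM + 1) and log2(TPM + 0.1), diffSpliceDGE and left-out libraries were tried, and the fits were tested on simulated data.

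The main fits used the group alone and did not pair the samples. A block on the replicate numbers in the labels was tried beside them. Deviations from the group means correlated at 0.891, 0.699 and 0.671 between same-numbered libraries. Across numbers they correlated at 0.664 for DMSO 3 with auxin 2 and 0.439 for DMSO 2 with auxin 3, so replicates 2 and 3 are hardly told apart. Replicate 1 correlated negatively with the others. Deviations from a group mean cancel out for each gene, so a replicate that stands apart gives such negative values by construction. The labels do not say whether cultures were separate beyond the words biological replicate. Named were the 9 genes, USP7, PPM1D, RPL5, RPL11, SRSF3 and PRMT5, up to 2 genes called in each direction per list at a mean CPM of at least 1, transcripts of MDM2, MDM4 and FAS with a mean share of at least 5%, called transcripts of the other genes, and tested exons of these 3 genes. VIL1, CEACAM5, MDM2-212, SESN1-202, TP53I11-203, AC025423.2, ACTA2, TSPAN18, FAM228B and a few minor forms were named besides, after their values were seen. The members and lists were chosen with earlier results of these data known. One gene of the list of regulators is not reported here and was left out of its counts.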

Additional observations from a re-analysis of the deposited data

How the results depend on the processing

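No result changed sign past its threshold. Of the 9 genes, 3 were higher and 2 lower in the edgeR fit; these counts were 6 and 1 with upper-quartile factors, 1 and 2 with library size only, 5 and 2 with the replicate block (all genes: 6534 and 4416, 3894 and 5625, 7005 and 6789), and 0 and 1 with limma on log2(TPM + 1) or log2(TPM + 0.1). Leaving out 1 library gave 2 to 3 higher and 1 to 2 lower. Over all genes, limma called 970 higher and 2966 lower on log2(TPM + 1), and 1017 and 3223 on log2(TPM + 0.1), against 5010 and 5311 in edgeR; the cause was not tested. Left-out libraries gave 3876 to 4979 higher and 4493 to 5575 lower.

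Of the 35 transcripts tested in these genes 4 were called; 1 was with a minimum share of 5%, 8 with 0.5%, and 0 in edgeR's diffSpliceDGE, which called 2517 of all transcripts against 6786. Left-out libraries gave 2 to 4, and 3734 to 5564 of all transcripts. The exons called were 2, and 1 with a pseudocount of 0.1, a minimum of 0.5%, expected counts or the replicate block; left-out libraries gave 0 to 1, and 1679 to 2345 of all exons against 2909. Replicates 2 and 3 alone gave 1830. With all forms of an exon counted as included 2 were called, MDM4 exon 6 no longer among them, and without entries shorter than 300 bases 3. With the replicate block, no call of a gene, transcript or exon named in the text changed other than those given beside their results. The result for FAM228B with that block is not given here. Each gene had at least 1370 counts in every library, so the 3 libraries of a group, more than depth, limit the precision.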
